A study of Mus musculus with 8 samples.

Results

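The C-type lectin receptors of macrophages were followed as a set of 7 genes chosen by name, Clec4d, Clec4e, Clec4n, Clec5a, Clec7a, Clec4a2 and Clec12a. Of these, 6 had a row among the 21080 gene symbols in the deposited data and all 6 could be tested in every comparison, while the level of Clec7a was not analysed here. RNA-seq had been performed on BMDMs, that is macrophages differentiated in culture from the bone marrow of C57BL/6 mice, in 8 samples, 2 in each of 4 groups. The WT groups came from sex-matched littermates that carry the LysM Cre transgene without loss of Nudt21, and the Nudt21-cKO groups came from Nudt21 fl/fl LysM Cre mice, in which Cre expressed in myeloid cells removes part of the gene for Nudt21, a factor that guides the choice of polyadenylation site. One WT and one cKO group had no stimulation (0 h), and the other WT and cKO groups received IFNγ overnight and then LPS for 4 h. Each sample pooled the BMDMs of 2 mice, so that a p-value here measures only the spread between such pools.

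C-type lectin receptors are membrane proteins that bind carbohydrate, glycolipid or protein ligands on microbes and on damaged cells. Clec4d (MCL), Clec4e (Mincle) and Clec4n (Dectin-2) signal through the ITAM of the Fc receptor γ chain (Fcer1g), Clec5a (MDL-1) signals through DAP12 (Tyrobp), and Clec7a (Dectin-1), a receptor for β-glucan, carries a signalling motif of its own. These activating receptors recruit the kinase Syk, which acts through the complex of Card9, Bcl10 and Malt1 to switch on NF-κB target genes, whereas Clec4a2 (DCIR) and Clec12a carry an ITIM that recruits the phosphatases Ptpn6 and Ptpn11 and dampens activation.

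All 7 genes lie on mouse chromosome 6 (GRCm38), and 4 of them are neighbours in 1 cluster. In GENCODE M21, Clec4a2 spans chr6:123106428-123143999, Clec4n chr6:123229843-123247021 and Clec4d chr6:123262111-123275265, all on the plus strand, and Clec4e spans chr6:123281789-123289870 on the minus strand. Clec12a (chr6:129342691-129365303, plus strand) and Clec5a (chr6:40574894-40585821, minus strand) lie elsewhere on the chromosome. Nudt21 is the subunit of the cleavage factor Im complex that binds UGUA in RNA. The UGUA closest to the annotated 3′ end of the 3′UTR is therefore shown for 3 receptors. The sequences are in lower case with the motif in capitals, written 5′ to 3′ on the strand of the transcript. The windows lie at chr6:123281832-123281855 (minus strand) for Clec4e, chr6:123246842-123246865 for Clec4n and chr6:123143767-123143790 for Clec4a2 (both plus strand). Those 3 receptors were called by genotype by the rule given below, Clec4a2 at 4 h only, so the choice used these data. None of them had an adjusted p under 0.05.
Clec4e: uguaguguuuUGUAcauuagguua
Clec4n: uaaugauuguUGUAagagggucca
Clec4a2: gacauauucaUGUAaccaguuuca
These motifs end 53, 166 and 219 bases before the 3′ end, respectively. The annotated 3′UTR of Clec4e has 1751 bases and 13 UGUA motifs (7.42 per kb), that of Clec4n has 436 bases and 2 motifs (4.59 per kb), and that of Clec4a2 has 1492 bases and 8 motifs (5.36 per kb). Clec5a has 20 motifs in 3072 bases, Clec12a has 6 in 1241 bases, and the 445 bases of Clec4d have 0. Over 19271 genes the median 3′UTR had 854 bases and 4.85 motifs per kb, and 83.1% of genes held at least 1. A match is a description of the sequence only, and the use of polyadenylation sites was not analysed here.

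The promoters, taken from RefSeq (GRCm38.p6) as 250 bases before to 50 bases after the start, were searched on both strands for 5 motifs. Entries were found for 6 of the 7 genes, all but Clec4n. The C/EBP core TTGCNNAA, present in 10.8% of 32851 promoters, was found in Clec4e at chr6:123289921-123289946 (minus strand, with the motif on the opposite strand, from 66 bases before the start) and in Clec12a at chr6:129350095-129350120 (plus strand, from 140 bases before the start). The interferon-γ activated site TTCNNNGAA, present in 8.3% of promoters, was found in Clec4a2 at chr6:123122639-123122665 (plus strand, from 42 bases before the start). They are shown because Clec4e and Clec12a rose with IFNγ/LPS and Clec4a2 fell, on the deposited scale, so the choice used these data. Clec5a, which rose too, had 0 matches to the C/EBP core. A match is a description of the sequence only, and a part of these motifs in the response was not tested. The capitals mark the motif.
Clec4e: tccttgtccTTGTGCAAgagaggaaa
Clec12a: aggagcaaaTTGCGCAActcgtatga
Clec4a2: tagaggagaTTCAAAGAAgggaagtct
The AP-1 motif TGANTCA (7.81% of promoters) was found once each in Clec4a2 and Clec12a. The PU.1 core GAGGAA (28.3% of promoters) occurred 3 times in Clec4d and 2 times each in Clec4e, Clec5a and Clec12a. It occurred 1 time in each promoter entry of Clec7a, and not in Clec4a2. The NF-κB core motif, held by 50.8% of promoters, had 0 matches in these windows.

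The values are a coverage signal, read here as the mean number of reads over each base of a gene and therefore comparable between genes, and the libraries had not been brought to a common total. The total over genes ranged from 14950347 to 17954882 per sample. Nudt21 coverage averaged 679 in WT and 165 in cKO at 0 h, and 561 in WT and 129 in cKO at 4 h (log2 fold change -2.04, adjusted p = 0.0462, and -2.13, adjusted p = 0.0445, limma with Benjamini-Hochberg adjustment). The stimulation genes Nos2, Il6, Il12b and Cxcl10 were called higher at 4 h in both genotypes. Macrophage markers were high, with mean coverage of Csf1r between 13180 and 41480 and of Adgre1 between 9313 and 22290 in the 4 groups. Summed over 10 neutrophil markers, coverage was 24010 to 26570 in WT and 27830 to 36890 in cKO at 0 h, and 18010 to 22260 in WT and 22710 to 25790 in cKO at 4 h. That sum was mostly S100a8 and S100a9, which myeloid cells share. The neutrophil marker Ly6g had a mean of at most 3.68 in any group and was listed at 0 in 3 of the 8 samples. Other genes of the list had clear coverage. At 0 h the means in WT and cKO were 3955 and 5064 for Ngp, 1807 and 1975 for Ltf and 436 and 596 for Camp. At 4 h they were 2720 and 4221 for Ngp, 595 and 890 for Ltf and 424.5 and 667 for Camp. Mpo (101 and 76.5) and Elane (100 and 90.6) were lower in cKO at 4 h. By the call rule given below, 0 of the 10 were called higher and 1 lower in cKO at 0 h, and 1 higher and 1 lower at 4 h, where 14.6% and 25% of all genes were called. The 3 monocyte markers summed to 944 to 983 in WT and 783 to 944 in cKO at 0 h and to 1934 to 2662 in WT and 3007 to 3333 in cKO at 4 h. Of these Ccr2 was called lower in cKO at both times. The part of other cells in the results below was not tested, and in bulk RNA fewer cells of a type and less RNA per cell cannot be told apart.

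Without stimulation, Clec4d was the most abundant receptor in WT, with a mean coverage of 22735 ± 2602 (SD, n = 2). Clec12a followed at 5888 ± 57.5, Clec4a2 at 3814 ± 18.3, Clec4n at 1674 ± 83.8, Clec5a at 508 ± 2.89 and Clec4e at 291 ± 60.3 (SD, n = 2 each). Each of these neighbours was separated in both samples. In cKO at 0 h the same receptor led at 26587 ± 1571, but Clec12a (4561 ± 215), Clec4a2 (4403 ± 317) and Clec4n (3896 ± 756) overlapped, as did Clec4e (830 ± 315) and Clec5a (690 ± 63.0). After IFNγ/LPS Clec4e led in both genotypes, at 24863 ± 8645 in WT and 50755 ± 4552 in cKO. In WT at 4 h it was followed by Clec12a (12925 ± 420) and Clec4d (12325 ± 2180), which overlapped, by Clec5a (1684 ± 145) and Clec4a2 (1463 ± 340), which overlapped too, and by Clec4n (693 ± 28.5). In cKO at 4 h the order was Clec4e, Clec4d (13864 ± 1127), Clec12a (9577 ± 334), Clec5a (1855 ± 61.3), Clec4n (1417 ± 216) and Clec4a2 (748 ± 17.4), with each neighbour separated in both samples. The inhibitory Clec4a2 thus ranked between Clec12a and Clec4n in unstimulated WT and the lowest in stimulated cKO. Together the 6 genes made up 0.208% to 0.244% of all coverage at 0 h and 0.312% to 0.458% at 4 h.

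**Figure D1:**
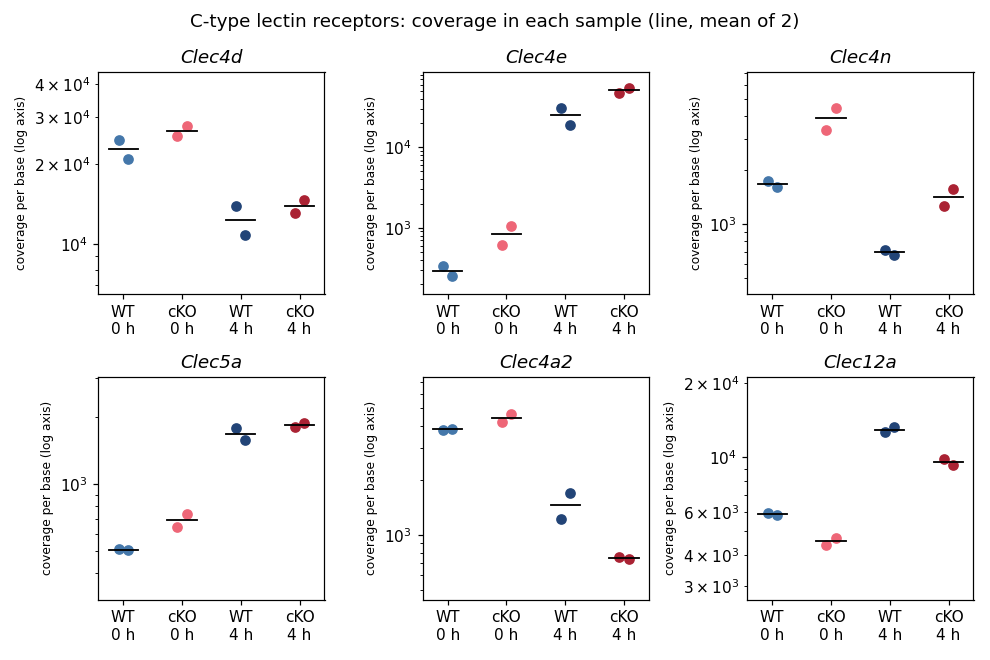
Coverage per base of each receptor (vertical log axis) in the 8 samples, by genotype and time, with the mean of the 2 samples of a group as a line. Clec4e and Clec4n lay higher in each cKO sample than in any WT sample of the same time, and Clec4a2 lay lower in cKO at 4 h. Groups did not overlap, in either direction, for 57% of all genes at 0 h and 66% at 4 h.

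Which receptors differed by genotype was asked at each time, on log2(coverage + 0.1), with limma. The call rule was that of the study, more than a 1.5-fold difference together with an unadjusted p under 0.05. At 0 h Clec4e and Clec4n rose in cKO and the other 4 receptors were not called, so that 2 of 6 were called higher and 0 lower. Over all 16251 genes tested, 8.99% were called higher and 5.61% lower, 14.6% in all. At 4 h Clec4e and Clec4n again rose, Clec4a2 fell, and 3 were not called, against 20.8% of 14950 genes called higher, 4.17% lower and 25% in all. The median log2 fold change of the 6 receptors was 0.33 at 0 h and 0.16 at 4 h, and that of all genes was 0.10 and 0.31. None of the 6 passed with Benjamini-Hochberg adjustment at either time, when 1.03% of genes passed at 0 h and 3.86% at 4 h, and 4 of 6 had an unadjusted p under 0.05 from limma at each time, as did 21.3% of all genes at 0 h and 34.3% at 4 h. The smallest p that an exact permutation test (two-sided) of a single gene could give in this design is 0.333. After centring each sample on its median, 7.25% of genes were called higher and 6.98% lower at 0 h. At 4 h 10.4% were called higher and 9.9% lower. Values on that scale are given below as relative to the median gene. The median meant there is the median log2 coverage of each sample, so the shift need not equal the median fold change.

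Clec4e, the receptor for mycobacterial trehalose dimycolate and for the nuclear protein Sap130 released by dying cells, had the largest fold change of the 6 receptors at both times on the deposited scale. At 0 h the WT samples had a coverage of 334 and 248, and the cKO samples 608 and 1053. At 4 h the WT samples had 30976 and 18750, and the cKO samples 47536 and 53974. The genotypes did not overlap at either time, with cKO the higher. Neither did those of 57% of all genes at 0 h and 66% at 4 h, in either direction. The log2 fold change of Clec4e was 1.47 at 0 h (standard error 0.37, 95% interval 0.30 to 2.64, adjusted p = 0.189, limma), a 2.78-fold higher level in cKO. At 4 h it was 1.07 (standard error 0.32, 95% interval 0.08 to 2.07, adjusted p = 0.131, limma), 2.1-fold higher. The call at 0 h was lost without WT sample 1 (log2 fold change 1.69), without WT sample 2 (1.26) and without cKO sample 4 (1.08), and the call at 4 h without either cKO sample (1.16 without sample 3 and 0.98 without sample 4). Both calls were also lost with unmoderated variances. Relative to the median gene, which was itself higher in cKO, the difference at 4 h was 0.73 and was not called.

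Clec4n, which binds fungal mannans, rose in cKO with a smaller error than Clec4e. Coverage at 0 h was 1733 and 1615 for the WT samples, against 3362 and 4431 for cKO. At 4 h these were 713 and 672 for WT, against 1264 and 1570 for cKO. The groups did not overlap, as for 57% of all genes at 0 h and 66% at 4 h in either direction. The lowest cKO sample lay above the highest WT sample at each time, and the 2 WT samples lay close together. The log2 fold change was 1.21 at 0 h (standard error 0.19, 95% interval 0.61 to 1.80, adjusted p = 0.121, limma), or 2.31-fold, and 1.02 at 4 h (standard error 0.16, 95% interval 0.52 to 1.53, adjusted p = 0.0673, limma), or 2.03-fold. It was also called relative to the median gene, at 1.11 and 0.69, and the only single sample without which the call was lost was WT sample 2 at 0 h (1.16).

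Clec4d, which pairs with Clec4e and lies next to it in the genome, was not called at either time. At 0 h the WT samples had a coverage of 24575 and 20895, and the cKO samples 25475 and 27698. At 4 h the WT samples had 13866 and 10783, and the cKO samples 13067 and 14661. The cKO samples lay above the WT samples at 0 h, when 57% of all genes did not overlap in either direction, and overlapped with them at 4 h. The log2 fold change was 0.23 at 0 h (95% interval -0.22 to 0.68, adjusted p = 0.444, limma) and 0.18 at 4 h (95% interval -0.41 to 0.77, adjusted p = 0.545, limma), and the sign at 4 h turned to -0.16 relative to the median gene.

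Within each library, the ratio of Clec4e to Clec4d does not depend on how the library was scaled. At 0 h the ratio was 0.0136 and 0.0119 for the WT samples, against 0.0239 and 0.0380 for cKO. At 4 h the ratio was 2.23 and 1.74 for WT, against 3.64 and 3.68 for cKO, so that the cKO samples were higher at each time without overlap. The ratio of Clec4n to Clec4d was 0.0705 and 0.0773 for WT, against 0.132 and 0.160 for cKO, at 0 h. It was 0.0514 and 0.0624 for WT, against 0.0967 and 0.107 for cKO, at 4 h. Of the 3 receptors that use Fcer1g, then, Clec4e and Clec4n lay higher against Clec4d in every cKO library. These ratios restate the values above and were not tested. Single genes were separated by genotype, in either direction, in 57% of cases at 0 h and 66% at 4 h. The share over ratios of other genes was not computed.

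**Figure D2:**
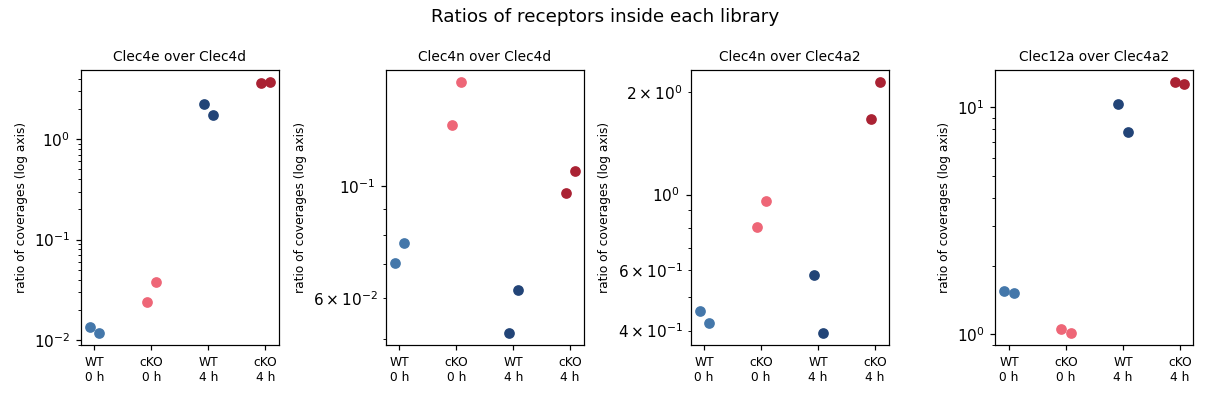
Ratio of the coverage of 2 receptors in the same library (vertical log axis) for 4 pairs, with 1 point per sample, by genotype and time. Clec4e over Clec4d and Clec4n over Clec4d were higher in both cKO samples at each time, and Clec4n over Clec4a2 reached 1.66 and 2.13 in cKO at 4 h against 0.583 and 0.395 in WT. Of single genes, 57% at 0 h and 66% at 4 h did not overlap, in either direction, and the share over ratios was not computed.

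Clec5a, the activating receptor that uses Tyrobp, was not called by the fold rule. Coverage was 510 and 506 for WT, against 646 and 735 for cKO, at 0 h. It was 1786 and 1581 for WT, against 1811 and 1898 for cKO, at 4 h. The cKO samples were above the WT samples at both times, by little at 4 h. Such a separation, in either direction, was found for 57% of all genes at 0 h and 66% at 4 h. The log2 fold change was 0.44 at 0 h (95% interval 0.06 to 0.82, adjusted p = 0.205, limma), a 1.36-fold difference, and 0.14 at 4 h (95% interval -0.24 to 0.52, adjusted p = 0.467, limma). Centring brought the value at 4 h to -0.19.

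Clec4a2, an inhibitory receptor, was called by genotype at 4 h only, and the difference between the times is tested below. At 0 h the WT samples had a coverage of 3801 and 3827, and the cKO samples 4179 and 4627, above WT. At 4 h the WT samples had 1222 and 1704, and the cKO samples 761 and 736, below WT. Groups were likewise separated, in either direction, for 57% of all genes at 0 h and 66% at 4 h. The log2 fold change was 0.21 at 0 h (95% interval -0.15 to 0.56, adjusted p = 0.398, limma), which was not called, and -0.95 at 4 h (standard error 0.22, 95% interval -1.63 to -0.27, adjusted p = 0.0956, limma), a 1.93-fold lower level in cKO. The call at 4 h was lost without cKO sample 3 (-0.97) or cKO sample 4 (-0.92) and with unmoderated variances, and was kept relative to the median gene (-1.28). Its transcript shares a stretch of 436 bases at 96.3% identity with that of Clec4b1, another gene of the cluster, and it overlaps Gm44132 on the same strand, so the coverage of Clec4a2 is uncertain where reads could be split. No other analysed receptor had a copy of at least 100 bases at 95% identity.

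Clec12a, the other ITIM receptor, which binds uric acid crystals, was lower in both cKO samples at both times without passing the fold rule. Coverage was 5928 and 5847 for WT, against 4408 and 4713 for cKO, at 0 h. It was 12628 and 13222 for WT, against 9813 and 9341 for cKO, at 4 h. The groups did not overlap, as was the case for 57% of all genes at 0 h and 66% at 4 h. The log2 fold change was -0.37 at 0 h (95% interval -0.70 to -0.04, adjusted p = 0.208, limma) and -0.43 at 4 h (95% interval -0.76 to -0.11, adjusted p = 0.1003, limma). Relative to the median gene it was -0.46 at 0 h, still not called, and -0.77 at 4 h, which was called.

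**Figure D3:**
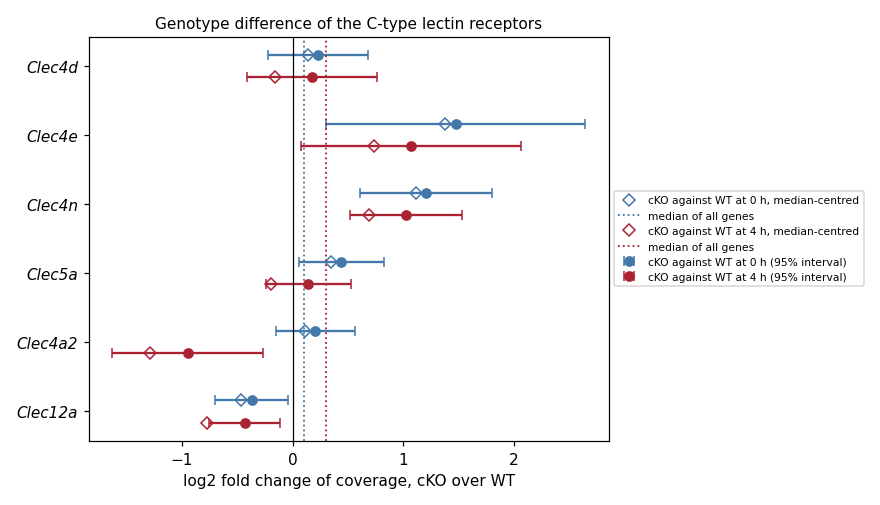
Log2 fold change of coverage, cKO over WT, at 0 h and 4 h for the 6 receptors, with 95% intervals from limma (filled circles), the same after centring each sample on its median (open diamonds) and the median of all genes (dotted lines). Clec4e and Clec4n lay to the right of 0 at both times, Clec4a2 lay to the left at 4 h only, and Clec12a lay to the left at both.

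What IFNγ/LPS did to the receptors was asked within each genotype, over all 8 samples. The 0 h and 4 h values stand in separate tables, and the genotype and stimulation comparisons share samples. All 6 receptors were called in WT and in cKO, 3 higher and 3 lower in each. Among all 16284 genes 12% were called higher and 56% lower in WT (68% in all), and 13.5% higher and 51.9% lower in cKO (65.4% in all). Each of the 6 also had an adjusted p under 0.05 in both genotypes, as did 71.1% of all genes in WT and 69% in cKO. Relative to the median gene 34.7% of genes were called higher and 22.2% lower in WT, and 32.7% higher and 22.4% lower in cKO. The median gene was lower by -1.24 in WT and by -1.03 in cKO on the log2 scale, so a fall of about that size is the ordinary one on this scale. The medians of the 6 receptors were 0.12 and 0.07.

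The 3 receptors that rose did so on either scale. Clec4e rose 83.7-fold in WT (log2 fold change 6.39, standard error 0.38, adjusted p = 0.000108, limma) and 63.3-fold in cKO (5.98, standard error 0.38, adjusted p = 0.000153). Among all genes, 98.6% had a lower log2 fold change than Clec4e in WT and 98.1% in cKO. Ordered by coverage in each library, Clec4e moved in WT from rank 6073 and 6896 at 0 h to rank 63 and 106 at 4 h, and in cKO from rank 4281 and 2831 to rank 41 and 39. Clec5a rose 3.31-fold in WT (1.73, standard error 0.12, adjusted p = 0.000157, limma) and 2.69-fold in cKO (1.43, standard error 0.12, adjusted p = 0.000324). Clec12a rose 2.19-fold in WT (1.13, standard error 0.09, adjusted p = 0.000273, limma) and 2.1-fold in cKO (1.07, standard error 0.09, adjusted p = 0.000389). An activating receptor with Fcer1g, one with Tyrobp and an inhibitory receptor were thus each higher after stimulation.

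Clec4d, Clec4n and Clec4a2 fell on the deposited scale. In WT the log2 fold changes were -0.89 for Clec4d (adjusted p = 0.00613), -1.27 for Clec4n (adjusted p = 0.00206) and -1.40 for Clec4a2 (adjusted p = 0.00128, all limma). In cKO they were -0.94 for Clec4d (adjusted p = 0.00529), -1.45 for Clec4n (adjusted p = 0.00139) and -2.55 for Clec4a2 (adjusted p = 0.000207, all limma). On that scale in WT, 58.7% of all genes had a lower log2 fold change than Clec4d, 49.2% than Clec4n and 45.8% than Clec4a2. After centring each sample on its median coverage, the values in WT became 0.58 for Clec4d, 0.19 for Clec4n and 0.07 for Clec4a2. In cKO they became 0.26 for Clec4d and -0.25 for Clec4n, and none of these centred values was called. With quantile normalization the values in WT were -1.18 for Clec4d, -0.94 for Clec4n and -1.41 for Clec4a2, and with equal total coverage they were -0.84, -1.22 and -1.35, all still called. The fall of Clec4a2 in cKO was the exception to the loss with median-centring, at -1.35 relative to the median gene, and was called there too.

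**Figure D4:**
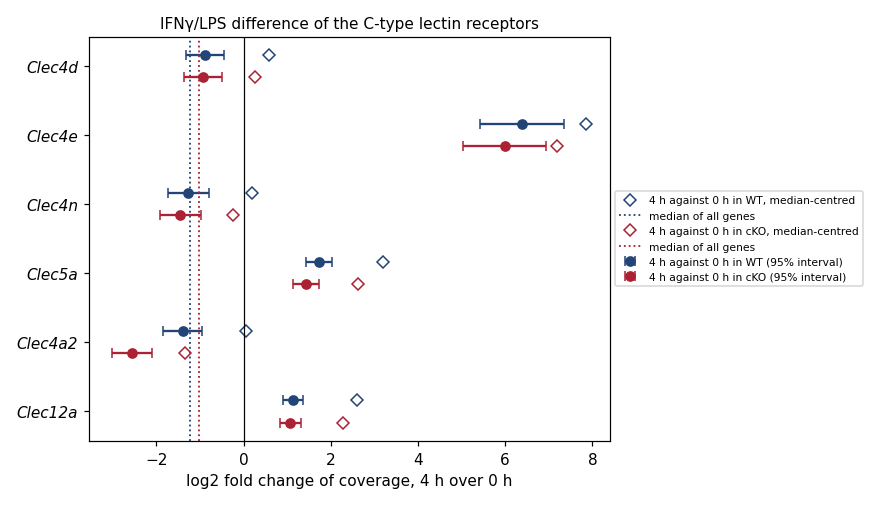
Log2 fold change of coverage, 4 h over 0 h, in WT and in cKO for the 6 receptors, with 95% intervals from limma (filled circles), the same after centring each sample on its median (open diamonds) and the median of all genes (dotted lines). Clec4e, Clec5a and Clec12a lay above 0 on either scale, whereas Clec4d, Clec4n and Clec4a2 lay near the median gene except for Clec4a2 in cKO.

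Whether the genotype difference itself changed with stimulation was tested with an interaction term in the 8-sample fit. None of the 6 receptors passed an adjusted p under 0.05 (limma), which 3.05% of all genes did, and 1 of 6 had an unadjusted p under 0.05, as did 22.1% of all genes. Clec4a2 was the closest, with a difference of -1.15 on the log2 scale (standard error 0.25, 95% interval -1.80 to -0.51, adjusted p = 0.0850). Relative to the median gene the difference of Clec4a2 was -1.42 (adjusted p = 0.0241), and over 17 alternatives its adjusted p ranged from 0.0208 to 0.234. For Clec4e the difference was -0.40 (95% interval -1.76 to 0.96, adjusted p = 0.708), for Clec4n -0.18 (95% interval -0.84 to 0.48, adjusted p = 0.733), for Clec5a -0.30 (adjusted p = 0.368), for Clec12a -0.06 (adjusted p = 0.820) and for Clec4d -0.05 (adjusted p = 0.929). These intervals are wide for Clec4e, and an equal effect at both times is not shown by them.

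Of 24 signalling genes downstream of the receptors (adaptors, kinases, CARD9 complex members and inhibitors), 3 were called higher and 0 lower in cKO at 0 h, where 8.99% of all genes were called higher and 5.61% lower. At 4 h 1 was called higher and 1 lower, where 20.8% of all genes were higher and 4.17% lower. The medians of the 24 were 0.06 and 0.17, against 0.10 and 0.31 for all genes. Fcer1g, the adaptor of Clec4d, Clec4e and Clec4n, had mean coverage of 21070 in WT and 22180 in cKO at 0 h and of 27400 in WT and 29170 in cKO at 4 h, and was not called. Tyrobp, the adaptor of Clec5a, had 32630 in WT and 42300 in cKO at 0 h and 19110 in WT and 23430 in cKO at 4 h, and was not called either. Hcst (DAP10), another adaptor, rose at 0 h (log2 fold change 0.79, adjusted p = 0.215, limma). The other calls at 0 h were the kinase Prkcd (0.60, adjusted p = 0.162) and the ubiquitin ligase Cblb (1.35, adjusted p = 0.0799), which attenuates Syk signalling. At 4 h the kinase Src rose (1.26, adjusted p = 0.0556) and the exchange factor Vav3 fell (-1.01, adjusted p = 0.0689). After centring, 2 of the 24 were called higher and 0 lower at 0 h, and 1 higher and 4 lower at 4 h.

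None of Card9, Bcl10 and Malt1 was called by genotype. With IFNγ/LPS Malt1 rose from a mean coverage of 364 to 4980 in WT and from 361 to 6776 in cKO (log2 fold change 3.82 and 4.23). Card9 fell from 808 to 184 in WT and from 1163 to 162 in cKO (-2.14 and -2.84), also relative to the median gene. Of the 24 signalling genes, 5 were called higher and 10 lower in WT, and 5 higher and 12 lower in cKO, while relative to the median gene 16 were higher and 3 lower in WT and 13 higher and 3 lower in cKO. Of all genes, 12% were called higher and 56% lower in WT and 13.5% and 51.9% in cKO, or, relative to the median gene, 34.7% and 22.2% in WT and 32.7% and 22.4% in cKO. The balance of higher and lower calls among them therefore depended on the scale.

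Among 8 genes known to be induced through these receptors, 0 of the 7 tested were called by genotype at 0 h, and 3 of 8 were called higher and 1 lower in cKO at 4 h, where 20.8% of all genes were higher and 4.17% lower. After centring, 2 were higher and 1 lower at 4 h, Egr3 being lost. The chemokine gene Cxcl1 had coverage of 2337 and 1342 for WT, against 15539 and 18575 for cKO, at 4 h (log2 fold change 3.26, adjusted p = 0.0529, limma). Egr3 (1.17, adjusted p = 0.0830) and Nr4a1 (1.01, adjusted p = 0.0778) rose too, and Egr2 fell (-1.20, adjusted p = 0.0483). The median of the 8 was 0.90, against 0.31 for all genes. With IFNγ/LPS, the only stimulus described, Ptgs2 of this list rose from a mean coverage of 6.95 to 98550 in WT. A part of the lectin receptors in the levels of these 8 genes was not tested. Cebpb, which encodes the transcription factor C/EBPβ, had mean coverage of 3368 in WT and 2474 in cKO at 0 h, which was not called, and of 5382 in WT and 12580 in cKO at 4 h, a rise of 1.22 on the log2 scale (standard error 0.18, adjusted p = 0.0632, limma). Sap130, which encodes the ligand of Clec4e, and Spi1, which encodes PU.1, were not called at either time.

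Of 32 other C-type lectins listed, 29 had a row. At 0 h 5 of 25 tested were called higher and 3 lower in cKO, against 8.99% and 5.61% of all genes, with a median log2 fold change of 0.04. At 4 h 4 of 23 were called higher and 6 lower, against 20.8% and 4.17% of all genes, with a median of 0.07, and relative to the median gene 1 was higher and 7 lower. The mannose receptor Mrc1 fell at both times, from a mean coverage of 1937 in WT to 1046 in cKO at 0 h and from 155 to 46.7 at 4 h (log2 fold changes -0.89 and -1.68). Cd93 rose at both, from 3543 to 5924 and from 281 to 466 (0.74 at each time), though at 4 h it was not called relative to the median gene. Olr1, a receptor for oxidised LDL, fell at 4 h from 898 in WT to 249 in cKO (-1.84, adjusted p = 0.0482, limma) and was the only one of these lectins to pass the adjusted threshold. Cd302 rose at 4 h (0.60), but was not called relative to the median gene, and the activation marker Cd69, at 14550 in WT and 15250 in cKO at 4 h, was not called.

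The gene cluster from Clec4a1 to Clec4e spans 368 kb and holds 9 C-type lectin genes, of which 4 are among the receptors described here. In order along the cluster, the values at 4 h on the log2 scale were -1.02 for Clec4a1, -1.06 for Clec4a3, 0.78 for Clec4a4, -2.15 for Clec4b1, -0.95 for Clec4a2, 0.29 for Clec4b2, 1.02 for Clec4n, 0.18 for Clec4d and 1.07 for Clec4e. Clec4a1, Clec4a3, Clec4b1 and Clec4a2 were called lower, Clec4n and Clec4e were called higher, and none passed the adjusted threshold. Clec4a4, Clec4b2 and Clec4d, which lie between them, were not called, and 20.8% of all genes were called higher and 4.17% lower. After centring on the median gene the 4 lower calls stood, at -1.36, -1.40, -2.49 and -1.28 in the same order, as did Clec4n (0.69), but Clec4e (0.73) was not called. Mean coverage at 4 h was 3171 in WT and 1558 in cKO for Clec4a1 and 446 in WT and 210 in cKO for Clec4a3, both close relatives of Clec4a2. At 0 h Clec4a4 (1.24), Clec4n (1.21) and Clec4e (1.47) were called higher and none of the 9 was called lower, although Clec4a1 was called lower relative to the median gene (-0.60). Clec4a4, Clec4b1 and Clec4b2 were named after their values were seen, to complete the cluster, and Clec4a4 and Clec4b2 had mean coverage under 100 in every group. Clec4b1 had only 68.2 and 25.2 in the cKO samples at 4 h, with a 95% interval of -4.235 to -0.07. It shares 436 bases at 96.3% identity with Clec4a2, so the lower calls of these 2 genes may not be separate.

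**Figure D5:**
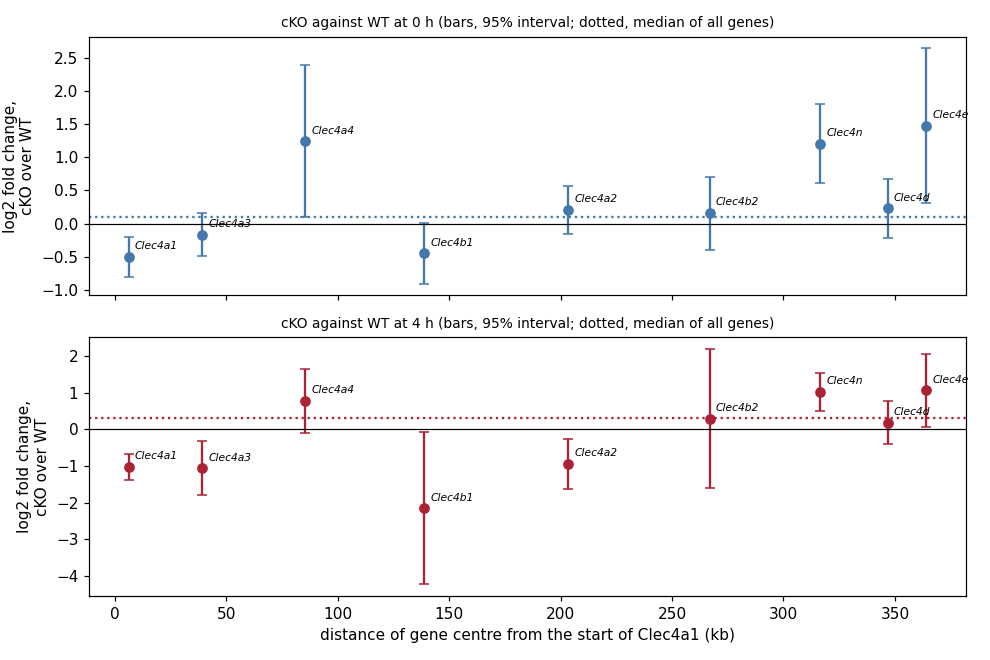
Log2 fold change of coverage, cKO over WT, for the 9 genes of the cluster against the distance of each gene's centre from the start of Clec4a1 (kb), at 0 h (upper panel) and 4 h (lower panel), with 95% intervals from limma and the median of all genes dotted. At 4 h Clec4a1, Clec4a3, Clec4b1 and Clec4a2 lay below 0 with their intervals, and Clec4n and Clec4e lay above it.

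The genes whose pattern over the 8 samples was most like that of each receptor were named by the smallest root mean square difference of centred log2 coverage, among 16284 genes. These values are a description, since all genes share the same 8 libraries. The nearest to Clec4e were Gm29371 (0.38), Plagl1 (0.40) and Alpk2 (0.43), against a median of 3.78 over all genes. For Clec4n they were Atp13a3 (0.16), Morn2 (0.17) and Gpatch11 (0.17), against a median of 0.92, and for Clec4d they were Ilkap (0.08), Sh2b2 (0.08) and Tubgcp3 (0.09), against 0.80. Clec5a was nearest to Klf6 (0.08), B3gnt2 (0.10) and Snx10 (0.11), against 1.59. Clec4a2 was nearest to Phf20 (0.13), Lgmn (0.15) and Txndc16 (0.17), against 0.99, and Clec12a to Fam49a (0.09), Adap2os (0.10) and Gsap (0.13), against 1.42. No receptor was among the 3 nearest genes of another.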

How the data were processed

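RNA-seq of BMDMs was available for 8 samples. The authors aligned paired-end reads to GRCm38/mm10 with HISAT2 2.2.1, quantified RefSeq genes with StringTie 2.1.7 and deposited a coverage signal per gene symbol and sample, the 0 h and 4 h samples in separate tables. The unit is not named there and was inferred from the values, which are not whole numbers and have column totals that differ between samples, so that no count test was run and the number of reads behind a value is unknown, although the labels give a library depth of over 250000000 reads. The labels give the stimulation for the 0 h samples too, and 0 h was taken from the titles. The tables also hold the authors' fold changes and p-values, which were not used.

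The genotype comparison was made within each time (4 samples), and stimulation and the interaction over all 8 samples, with limma 3.58.1 (R 4.3.3). Coverage was put on the scale log2(coverage + 0.1), and a gene was tested where its mean over the samples in the comparison reached 0.5. The pseudocount understates changes of low genes. Calls needed a fold change above 1.5 with an unadjusted p under 0.05, or for the interaction an adjusted p under 0.05. Adjusted p-values are Benjamini-Hochberg over all genes tested. The script was tested on simulated data. Replicate numbers recur at both times in the labels, so the same pools may have been used at both. Deviations of samples with the same number correlated by 0.0204 in WT and 0.0237 in cKO. With 2 samples per group this is a single value for each genotype and cannot show whether pools were shared. The main fits left the samples unpaired, and results with a replicate block are given below.

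The receptors and gene lists were chosen with earlier results of these data known. All receptors, adaptors and CARD9 complex genes were named, other signalling and target genes when called by genotype, and of the other lectins the 6 of highest mean and any with an adjusted p under 0.05. Positions and 3′UTRs came from GENCODE M21 (per gene, the RefSeq-linked coding transcript with the longest 3′UTR), promoters from RefSeq, and copies from blastn 2.17.0. Alternatives covered the pseudocount, filter, scaling, variance estimate, samples fitted, call rule, replicate block and single samples.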

Additional observations from a re-analysis of the deposited data

Results flagged for a closer look

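The genotype difference changed between the times for 2 other C-type lectins, each with an adjusted p under 0.05 from the limma interaction test. For Olr1 the genotype effect at 4 h less the one at 0 h was, on the log2 scale, -1.79 (standard error 0.22, adjusted p = 0.0277), with mean coverage of 21.7 in WT and 21.0 in cKO at 0 h and of 898 in WT and 249 in cKO at 4 h. For Clec10a, a galactose-binding receptor named here after its values were seen, it was -2.38 (standard error 0.35, adjusted p = 0.0433). Coverage was 81.2 and 79.6 for WT, against 135 and 125 for cKO, at 0 h. It was 49.7 and 81.4 for WT, against 21.1 and 18.3 for cKO, at 4 h. Thus cKO was higher at 0 h and lower at 4 h without overlap. Groups did not overlap, in either direction, for 57% of all genes at 0 h and 66% at 4 h.

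For Clec4a2 the cKO samples lay above WT at 0 h, where the difference was not called (log2 fold change 0.21), and below WT at 4 h. The groups did not overlap at either time, as for 57% of all genes at 0 h and 66% at 4 h, in either direction. The interaction difference of Clec4a2, -1.15, did not pass the adjusted threshold of that test (adjusted p = 0.0850, limma).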

How the results depend on the processing

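Over the 6 receptors in the 5 comparisons, single results were compared with those under each alternative. Of these, 456 kept their direction and their side of the threshold, 20 kept the direction and lost the call, 6 gained one and 16 changed sign. Receptors that stayed uncalled count among the 456. Some alternatives could not change a direction, such as the call rule, the variance estimate and, for stimulation, a sample left out from the other genotype. For cKO against WT, 2 receptors were called at 0 h and 3 at 4 h, with 1 and 1 under unmoderated variances (Clec4n each time, so that Clec4e lost both calls and Clec4a2 its call at 4 h) and 0 and 0 under an adjusted p under 0.05 with no fold limit (limma). Leaving out single samples gave 0 to 2 at 0 h and 1 to 3 at 4 h, and there a lone sample is assumed to vary like the other group. Median-centring also gave 3 at 4 h, but with Clec12a in place of Clec4e, and so did quantile normalization and equal total coverage. The numbers of genes called, 2373 and 3736, became 167 and 577 under that rule, which changes both the adjustment and the fold limit, and ranged from 2036 to 2536 and from 2243 (without cKO sample 4) to 4577 with single samples left out. Signs at 4 h turned for Clec4d (-0.16 median-centred, -0.0561 quantile normalized, -0.0326 with equal totals, and from -0.00256 without WT sample 2 to 0.36 with single samples left out) and for Clec5a (-0.19, -0.10 and -0.0696 under the same 3 scalings), neither of them called.

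With stimulation in WT, 3 of 6 receptors stayed called after median-centring, where Clec4a2 (0.0651), Clec4d (0.58) and Clec4n (0.19) changed sign, as did Clec4d in cKO (0.26). Quantile normalization and equal total coverage left all 6 called in both genotypes. For the interaction 0 receptors passed, and 1, Clec4a2, passed after median-centring, with an intensity trend and without WT sample 1 at 4 h (0 to 1 with single samples left out). The interaction values of Clec4d became 0.07, 0.01, 0.13 and 0.03 without WT sample 2 at 0 h, cKO sample 4 at 0 h, WT sample 1 at 4 h and cKO sample 3 at 4 h, with a lowest value of -0.23 over single samples left out, and that of Clec4n ranged from -0.38 to 0.018 (without cKO sample 4 at 0 h). The 496 genes that passed the interaction became 1282 with an intensity trend and 184 (without cKO sample 4 at 4 h) to 692 with single samples left out. With 316, 320, 278, 258 and 268 genes without WT sample 1, WT sample 2, cKO sample 3 and cKO sample 4 at 0 h and cKO sample 3 at 4 h, each of these samples moved the count by over 1.5 times. The causes were not tested.

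With the replicate block, 31 genes and 0 receptors passed the interaction, and 6 receptors stayed called with stimulation in each genotype (10935 genes in WT and 10489 in cKO). Genotypes share no replicate number, so no paired analysis was possible for cKO against WT. DESeq2 and edgeR were planned only for counts and were not run. With 2 pools per group the spread is itself poorly known, and the labels give over 250000000 reads per library but not the reads behind each value.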
